A study of Mus musculus with 10 samples.

Results

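The 10 genes described here are 9 genes of histone lysine demethylases (Kdm5a, Kdm5b, Kdm1a, Kdm2a, Kdm2b, Kdm3a, Kdm4a, Kdm4c and Kdm6b) together with Dpy30, a core subunit of the complexes that methylate lysine 4 of histone H3. They were taken by gene symbol from 19938 genes with a probe set of their own. Each of the 10 genes had 1 such probe set, and all 10 passed the filter that left 14953 genes to be tested. Kdm5a and Dpy30 were picked with their difference between nicotine and water already known, so the members' differences between the groups are given as a description, with no test.

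The arrays measured prostate RNA of 10 male TRAMP mice, 1 array per mouse. All of them carry the TRAMP transgene, a viral T antigen driven in the prostate epithelium by the promoter of the probasin gene Pbsn, and develop prostate tumours. In the nicotine group 5 mice drank tap water with nicotine, given as the tartrate salt, at 250 µg/ml from 8 to 9 weeks of age. In the water group 5 mice drank tap water alone, so the transgene is common to both groups and no mouse without it was used here. Values are log2 expression values as deposited, in which a step of 1 is a doubling of signal.

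Histone lysine demethylases take methyl groups off lysines in histone tails and so counter the methyltransferases. Kdm1a (LSD1) uses a flavin cofactor, while the other 8 demethylases carry a JmjC domain that needs iron and alpha-ketoglutarate. Dpy30 works on the opposite side: with Wdr5, Rbbp5 and Ash2l it forms the core that the H3K4 methyltransferases share. Several of these enzymes are studied in prostate cancer, where Kdm1a, Kdm3a, Kdm4a and Kdm4c act as partners of the androgen receptor.

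Promoter sequences from RefSeq (mouse build GRCm38.p6, 250 bases before to 50 after a start site) were at hand for 7 of the 10 genes. Kdm5a, Kdm2a and Kdm6b had no entry. Shown are the windows of Dpy30, Kdm5b and Kdm4c, whose nicotine and water mice did not overlap, and of Kdm1a, which stood apart in nicotine mice 1 and 3. Capitals mark any match, on either strand, to the CCAAT box (CCAAT), the GC box (GGGCGG), the E-box CACGTG or the E2F motif TTCCCGCC.
Dpy30, chr17:74316345-74316644, minus strand: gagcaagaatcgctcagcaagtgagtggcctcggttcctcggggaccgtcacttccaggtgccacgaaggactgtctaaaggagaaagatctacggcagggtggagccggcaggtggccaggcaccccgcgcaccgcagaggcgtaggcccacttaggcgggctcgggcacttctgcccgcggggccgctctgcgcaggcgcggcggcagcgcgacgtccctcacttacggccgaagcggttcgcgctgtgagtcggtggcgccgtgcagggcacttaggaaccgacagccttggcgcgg
Kdm5b, chr1:134559928-134560227, plus strand: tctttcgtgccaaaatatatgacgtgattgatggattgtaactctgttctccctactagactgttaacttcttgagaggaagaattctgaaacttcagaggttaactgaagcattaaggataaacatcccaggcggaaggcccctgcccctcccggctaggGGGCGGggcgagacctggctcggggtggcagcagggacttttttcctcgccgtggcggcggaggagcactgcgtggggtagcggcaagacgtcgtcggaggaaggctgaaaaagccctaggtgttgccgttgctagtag
Kdm4c, chr4:74251629-74251928, plus strand: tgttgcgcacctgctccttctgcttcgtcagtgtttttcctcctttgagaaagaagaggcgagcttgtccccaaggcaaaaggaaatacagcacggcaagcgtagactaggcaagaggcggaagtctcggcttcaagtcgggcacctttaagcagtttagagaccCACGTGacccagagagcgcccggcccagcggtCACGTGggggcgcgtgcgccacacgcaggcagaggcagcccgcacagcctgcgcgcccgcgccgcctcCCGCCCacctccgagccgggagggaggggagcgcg
Kdm1a, chr4:136602674-136602973, minus strand: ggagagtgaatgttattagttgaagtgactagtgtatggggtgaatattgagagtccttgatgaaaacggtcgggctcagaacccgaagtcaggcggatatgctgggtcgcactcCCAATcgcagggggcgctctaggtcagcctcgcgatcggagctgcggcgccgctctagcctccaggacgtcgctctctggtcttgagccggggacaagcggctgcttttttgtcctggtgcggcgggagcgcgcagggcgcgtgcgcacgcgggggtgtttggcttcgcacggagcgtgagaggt

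The 4 windows held 34 (Dpy30), 17 (Kdm5b), 28 (Kdm4c) and 29 (Kdm1a) CpG dinucleotides, against a median of 7 over all 32851 windows of the table. Kdm4c held the E-box at 2 places, a motif found in 7.15% of all windows, and 1 GC box (35.7% of all windows). The window of its other start site held 0 CpG and none of the 4 motifs. Kdm5b held 1 GC box, and Kdm1a held 1 CCAAT box (37.4% of all windows). The Dpy30 window held none of the 4 motifs, and no matches overlapped in the windows shown. It belongs to the middle one of 3 start sites that lie within 222 bases of one another, and another start site lies 7511 bases upstream. Of the windows not shown, 1 of the clustered ones held 1 GC box, and the far one held 1 CCAAT box and 1 CpG. The E2F motif, in 2.19% of all windows, was in no window of the 7 genes. These matches are letters in a window and were not set against binding data.

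The prostates of nicotine 3 and nicotine 1 stood apart from the remaining 8. Nicotine 3 had a median Pearson correlation of 0.654 with the rest and nicotine 1 one of 0.88, where any 2 of the remaining 8 correlated at 0.98 to 0.993. Neuroendocrine markers (11 genes measured) averaged 10.7 in nicotine 3 and 9.66 in nicotine 1, against 6.99 to 7.7 in water mice. Luminal secretory markers of the prostate averaged 7.84 in nicotine 3, against 11.52 to 11.7 in water mice, and Pbsn itself stood at 5.08 there, against 10.95 to 11.54 in water mice. The mean of the smooth muscle list was 7.97 in nicotine 3, against 11.36 to 11.62 in water mice. In nicotine 1 skeletal muscle markers averaged 10.68, against 7.81 to 7.97 in water mice, and endothelial markers 8.62, against 7.71 to 8.02. Seminal vesicle secretory genes averaged above 12 in nicotine 5 and in water 3, 4 and 5, and below 9 in the other 6 mice. In such tissue RNA, fewer cells of a type and less RNA per cell cannot be told apart. Results are therefore given with and without nicotine mice 1 and 3.

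The H3K4 demethylase genes Kdm5a and Kdm5b were lower in every nicotine mouse than in any water mouse. Kdm5a, whose product was first found as a partner of the retinoblastoma protein, had values of 9.40, 9.39, 9.37, 9.39 and 9.41 in nicotine mice 1 to 5, against 9.62, 9.60, 9.67, 9.62 and 9.60 in water mice 1 to 5. The 2 groups were narrow and lay 0.19 log2 units apart. The means were 9.39 ± 0.01 in nicotine mice and 9.62 ± 0.03 in water mice (SD, n = 5 each), and the difference, nicotine minus water, was -0.23 ± 0.05 (SE of the limma fit), a ratio of 0.851. Nicotine mice 1 and 3, which stood apart in tissue markers, did not stand apart in Kdm5a, and without them the difference was -0.23 ± 0.05. Only 0.0268% of the genes tested had a smaller SD in nicotine mice than Kdm5a, a spread that helped to choose it.

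Kdm5b, its close paralog, was at 9.31, 9.30, 8.02, 9.36 and 9.22 in nicotine mice 1 to 5, against 9.53, 9.49, 9.37, 9.39 and 9.60 in water mice 1 to 5. Nicotine 3 was far below the rest, and the highest nicotine mouse lay 0.01 under the lowest water mouse. The difference was -0.43 ± 0.24 (SE) over all mice and -0.18 ± 0.07 without nicotine 1 and 3. Several marker lists were also lowest in nicotine 3, luminal, smooth muscle and fibroblast ones among these, and their part in the result was not tested.

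Dpy30 was the member with the opposite pattern, higher in every nicotine mouse than in any water mouse. It had values of 10.85, 10.70, 10.90, 10.71 and 10.79 in nicotine mice 1 to 5, against 10.47, 10.49, 10.50, 10.62 and 10.48 in water mice 1 to 5. The means were 10.79 ± 0.09 in nicotine mice and 10.51 ± 0.06 in water mice (SD, n = 5 each), a difference of 0.28 ± 0.06 (SE) and a ratio of 1.21. Nicotine 3 and 1 were the highest mice, but nicotine 2, 4 and 5 also lay above water 4, the highest water mouse. Without nicotine 1 and 3 the difference was 0.22 ± 0.05.

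**Figure D1:**
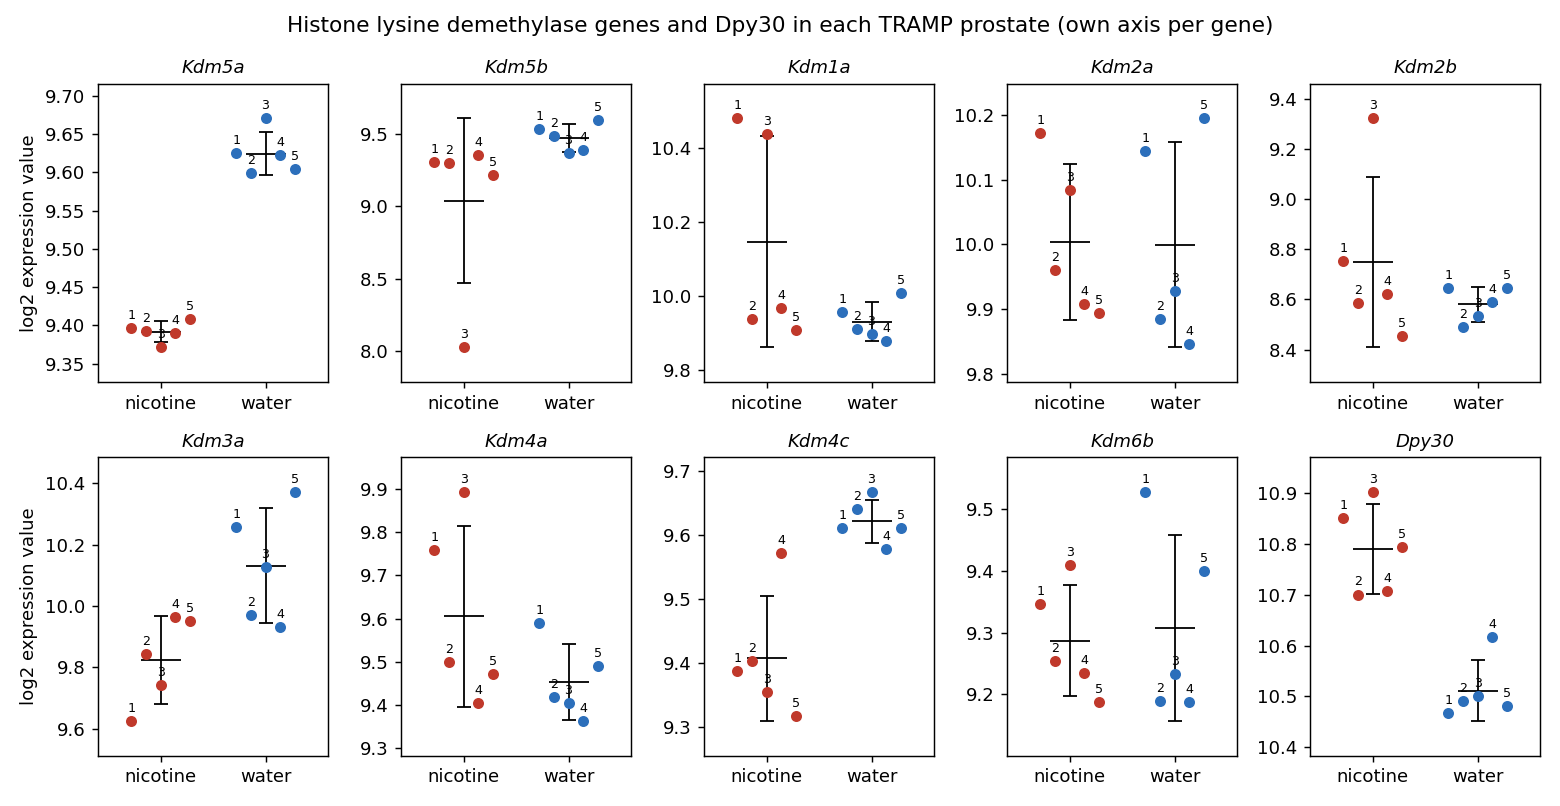
Log2 expression value (vertical axis, own range for each gene) of the 10 genes in each prostate, nicotine mice in red and water mice in blue, with mouse numbers beside the points and black bars for the mean ± SD of 5 mice. Kdm5a, Kdm5b and Kdm4c lie lower and Dpy30 higher in all nicotine mice, while Kdm1a, Kdm2b and Kdm4a stand out in nicotine 1 or 3.

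The demethylases of H3K9 differed among themselves. Kdm4c, which acts on trimethylated H3K9 and H3K36, was at 9.39, 9.40, 9.35, 9.57 and 9.32 in nicotine mice 1 to 5, against 9.61, 9.64, 9.67, 9.58 and 9.61 in water mice 1 to 5. The groups did not overlap, although nicotine 4 lay just 0.01 below water 4. The difference was -0.21 ± 0.06 (SE), and -0.19 ± 0.06 without nicotine 1 and 3.

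Kdm4a, its paralog with the same substrates, went the other way in 2 mice. It was at 9.76, 9.50, 9.89, 9.41 and 9.47 in nicotine mice 1 to 5, against 9.59, 9.42, 9.41, 9.36 and 9.49 in water mice 1 to 5. Nicotine 3 and 1 were the highest mice and the other 3 nicotine mice lay within the water range. The difference was 0.15 ± 0.10 (SE) over all mice and 0.01 ± 0.06 without those 2.

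Kdm3a, a demethylase of mono- and dimethylated H3K9 that is known as a hypoxia-induced gene, was at 9.62, 9.84, 9.74, 9.96 and 9.95 in nicotine mice 1 to 5, against 10.26, 9.97, 10.13, 9.93 and 10.37 in water mice 1 to 5. Nicotine mice 1, 2 and 3 were below all water mice, and nicotine 4 and 5 fell among the low water mice 2 and 4. The difference was -0.31 ± 0.11 (SE), and -0.21 ± 0.10 without nicotine 1 and 3. The water group itself spread over 0.44 log2 units.

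Kdm1a takes methyl groups off mono- and dimethylated H3K4 within the CoREST repressor complex. It was at 10.48, 9.94, 10.44, 9.97 and 9.91 in nicotine mice 1 to 5, against 9.96, 9.91, 9.90, 9.88 and 10.01 in water mice 1 to 5. Nicotine 1 and 3 exceeded the water mean by 0.55 and 0.51 log2 units, and the other 3 nicotine mice lay within the water range. The difference of 0.22 ± 0.13 (SE) shrank to 0.01 ± 0.05 without these 2 prostates. Several marker lists differed in them, neuroendocrine, luminal and muscle ones among these, and their part in the result was not tested.

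Kdm2b recruits a variant Polycomb complex to CpG-rich promoters and, with Kdm2a, removes methyl groups from H3K36. It was at 8.75, 8.58, 9.32, 8.62 and 8.45 in nicotine mice 1 to 5, against 8.65, 8.49, 8.53, 8.59 and 8.65 in water mice 1 to 5. Nicotine 3 exceeded the water mean by 0.74, and the difference changed sign when nicotine 1 and 3 were left out, with 0.17 ± 0.15 (SE) over all mice and -0.03 ± 0.06 without them. The long noncoding gene A930024E05Rik starts head to head with Kdm2b, 255 bases from the nearest start site. It was likewise highest in nicotine 3 (7.98) and nicotine 1 (7.69), against 7.28 to 7.46 in water mice, and did not pass the test over all genes (difference 0.12 ± 0.14 SE, adjusted p = 0.602 by limma). Without nicotine 1 and 3 the difference of A930024E05Rik was -0.08 ± 0.06 (SE).

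Kdm2a and Kdm6b had groups that overlapped over most of their range. Kdm2a ran from 9.89 to 10.17 in nicotine mice and from 9.85 to 10.19 in water mice, with a difference of 0.00 ± 0.09 (SE). Kdm6b, which removes trimethylation of H3K27 and is known to be induced in stimulated macrophages, ran from 9.19 to 9.41 in nicotine mice and from 9.19 to 9.53 in water mice, with a difference of -0.02 ± 0.08 (SE). Without nicotine 1 and 3 the differences were -0.08 ± 0.09 (SE) for Kdm2a and -0.08 ± 0.08 for Kdm6b. The sign of both changed with the setting.

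In count, 3 of the 10 members were lower and 1 was higher in all nicotine mice than in any water mouse, with and without nicotine 1 and 3. Over all genes tested these shares were 2.88% lower and 2.02% higher with all 10 mice, and 6.47% lower and 4.12% higher without nicotine 1 and 3. As the members were chosen with this contrast known, nothing is read from the count. The limma fit called 0 of 14953 genes (0%) at an adjusted p under 0.05, where the lowest reached was 0.458. Without adjustment 1514 genes were under 0.05. The differences of the members were 5 negative and 5 positive, with a median of -0.01, against a median of 0.004 over all genes tested. Without nicotine 1 and 3, 7 of the 10 were negative, with a median of -0.08, against 0.01 over all genes tested.

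**Figure D2:**
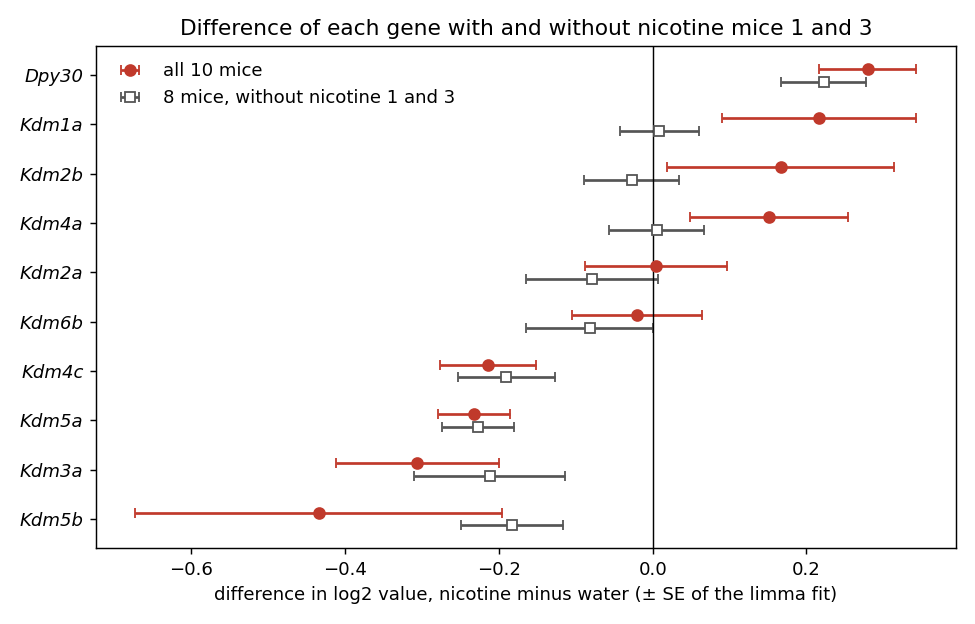
Difference in log2 value, nicotine minus water (horizontal axis), with bars for ± 1 SE of the limma fit, over all 10 mice (red circles) and over the 8 mice without nicotine 1 and 3 (open squares). Dpy30 (0.28 and 0.22), Kdm5a (-0.23 in both) and Kdm4c (-0.21 and -0.19) stay near the same value, while Kdm1a (0.22 and 0.01) and Kdm5b (-0.43 and -0.18) move.

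Proliferation and fibroblast markers also differed between the groups, with group ranges that did not overlap. Proliferation markers (17 of 18 genes measured) averaged 9.96 to 11.17 in nicotine mice, against 9.6 to 9.81 in water mice. Fibroblast markers (6 of 6 measured) averaged 8.26 to 9.46 in nicotine mice, against 9.81 to 10.17 in water mice. With the proliferation mean of each mouse as a covariate, the difference of Kdm5a was -0.22 ± 0.06 (SE), that of Kdm4c -0.16 ± 0.08, and that of Dpy30 0.18 ± 0.07. In the same fit Kdm5b (0.17 ± 0.19), Kdm1a (-0.10 ± 0.10), Kdm2b (-0.24 ± 0.09), Kdm4a (-0.10 ± 0.08) and Kdm2a (-0.12 ± 0.11) turned sign. Kdm3a was at -0.20 ± 0.14 and Kdm6b at -0.13 ± 0.10. The proliferation mean was highest in nicotine 3 (11.17) and nicotine 1 (10.58). Since it did not overlap between the groups, this fit cannot tell proliferation and nicotine apart, and nothing is read from it. The part of the fibroblast content in the result was not tested.

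Within the water group, water 1 and water 5 were high in most members, a pattern noticed after the values were seen. They were the 2 highest water mice for 7 of the 10 genes (Kdm5b, Kdm1a, Kdm2a, Kdm2b, Kdm3a, Kdm4a and Kdm6b), against 19.7% of all genes tested. For Kdm6b they stood at 9.53 and 9.40 and the other 3 water mice at 9.19 to 9.23; for Kdm2a they stood at 10.14 and 10.19 and the others at 9.85 to 9.93. Kdm5a, Kdm4c and Dpy30 did not share this order. Nicotine 1 and nicotine 3 were the 2 highest of all 10 mice for 4 members (Kdm1a, Kdm2b, Kdm4a and Dpy30), against 21.1% of all genes tested.

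Across the 8 other arrays, Pearson correlations between members ran from -0.88 to 0.92. They were 0.92 between Kdm2a and Kdm6b, 0.87 between Kdm2a and Kdm3a, and 0.83 between Kdm4a and Kdm6b. Kdm5a correlated with Kdm4c at 0.78, with Kdm5b at 0.66 and with Kdm4a at -0.06, and Kdm5b correlated with Kdm3a at 0.79 and with Kdm4c at 0.74. Dpy30 ran opposite to Kdm5a (-0.88), Kdm5b (-0.88), Kdm4c (-0.86) and Kdm3a (-0.71). These values describe 8 arrays that include both groups, so a shared difference between the groups is part of each. Kdm5a and Dpy30 were picked with their opposite differences known, so nothing is read from the -0.88 between them.

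Among 14223 named genes, the 3 whose values followed Kdm5a most closely over the 8 arrays were Qrich1 (r = 0.975), Atp13a3 (0.97) and Ubxn2b (0.97). Of these, Qrich1 was at 10.82 in nicotine 3, above all water mice (10.60 to 10.64), and so did not follow Kdm5a in that prostate. Ubxn2b was likewise above all water mice (9.55 to 9.67) in nicotine 3, while Atp13a3 was at 10.55 there, below all water mice (10.91 to 11.06). The 3 closest to Dpy30 were Nup93 (0.993), a gene of the nuclear pore, Nrarp (0.981), a feedback regulator of Notch signalling, and Cenpm (0.969), a centromere gene. Nup93 was at 10.13 and 10.05 in nicotine 1 and 3, at 9.36 to 9.42 in the other nicotine mice, and at 9.25 to 9.32 in water mice. Of the 14223 genes, 134 exceeded 0.9 with Kdm5a and 72 with Dpy30. Here too the 8 arrays include both groups, so a shared difference between the groups is part of each value. Kdm5a varied little within a group, with an SD of 0.01 in nicotine 2, 4 and 5 and 0.03 in water mice.

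Among the members, Kdm5a and Dpy30 were chosen by their already known difference between nicotine and water. The lists of partners of the members were also chosen with earlier results of these data known. The partners were tested in the same fit, and these tests are not independent of those earlier results. Of 70 genes in 5 lists, 67 had a probe set with 1 symbol and 66 passed the filter. None of the 66 passed an adjusted p of 0.05 by limma, and 11 had an unadjusted p under 0.05, in a table where 5.84% of all genes did so as lower and 4.28% as higher. With array weights in the fit, lowest for nicotine 3 and 1, 9 of the 66 passed, 2 higher and 7 lower, where 2.84% of all genes passed as higher and 4.49% as lower. These calls rest on the weights. For reading the signs in the lists, 50.7% of all genes tested had a positive difference over all mice and 53.5% without nicotine 1 and 3.

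Among the other demethylases and JmjC proteins, 10 of 17 tested genes had a negative difference and 7 a positive one, with a median of -0.06. Without nicotine 1 and 3 the count was 11 negative and 6 positive, with the same median. Lower in every nicotine mouse than in any water mouse were the Y-linked Kdm5d, a paralog of Kdm5a, the H3K27 demethylase gene Kdm6a and its Y-linked paralog Uty. These were 3 of the 17 tested genes, against 2.88% of all genes tested. Kdm5d was at 8.63, 9.05, 8.86, 9.04 and 9.14 in nicotine mice 1 to 5, against 9.38, 9.30, 9.39, 9.21 and 9.44 in water mice 1 to 5 (difference -0.40 ± 0.10 SE, adjusted p = 0.458 by limma). Kdm6a had a difference of -0.30 ± 0.09 (SE), Uty of -0.52 ± 0.20 and Kdm7a, a demethylase of H3K9 and H3K27, of -0.45 ± 0.15, each with an adjusted p of 0.458 by limma. Without nicotine 1 and 3 these 4 differences were -0.27, -0.20, -0.22 and -0.35. Whether probes of Kdm5c and Kdm5d, or of Kdm6a and Uty, also bind the other copy was not tested.

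In the H3K4 methyltransferase complexes that hold Dpy30, 14 of 16 genes had a positive difference over all mice, with a median of 0.10. The count was 7 of 16 and the median -0.01 without nicotine 1 and 3. In Paxip1 and Men1, 2 of the 16 genes, all nicotine mice were above all water mice, against 2.02% of all genes tested. Paxip1, a subunit of the Kmt2c and Kmt2d complexes, had a difference of 0.29 ± 0.08 (SE) and Men1, the menin gene, one of 0.17 ± 0.07. The core subunit gene Wdr5 differed by 0.15 ± 0.08 and the methyltransferase gene Kmt2c by -0.29 ± 0.12. The adjusted p by limma was 0.458 for each. In the 8 other mice Paxip1, Men1, Wdr5 and Kmt2c differed by 0.17, 0.13, 0.05 and -0.17.

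Among the CoREST partners of Kdm1a, 10 of 14 genes had a positive difference over all mice, with a median of 0.19. In the 8 other mice the count was 9 of 14 and the median 0.02. Rcor2, the CoREST paralog of neural and stem cells, was at 8.49 and 9.14 in nicotine 1 and 3, at 6.99 to 7.13 in the other nicotine mice, and at 6.97 to 7.12 in water mice. Hdac2 and Insm1, named after their values were seen, shared this order. The histone deacetylase gene Hdac2 was at 10.77 and 11.38 in nicotine 1 and 3 and at 9.82 to 10.01 in the other nicotine mice, against 9.88 to 10.05 in water mice. Insm1, a neuroendocrine transcription factor that binds Kdm1a, was at 10.14 and 10.49 in nicotine 1 and 3 and at 7.19 to 7.26 in the other nicotine mice, against at most 7.68 in water mice. Insm1 also belongs to the neuroendocrine marker list described above, so its values are not a separate result. Zmym2, a zinc finger subunit, was lower in every nicotine mouse than in any water mouse (-0.25 ± 0.07 SE, adjusted p = 0.458 by limma). Of all genes tested, 2.88% were lower in this way. Zmym3 (0.22 ± 0.08) and Ctbp1 (0.24 ± 0.11) were positive with the same adjusted p as Zmym2. Without nicotine 1 and 3 the differences of Zmym2, Zmym3 and Ctbp1 were -0.23, 0.12 and 0.08, and that of Rcor2 was 0.01, against 0.71 over all mice.

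The variant Polycomb partners of Kdm2b had 5 positive and 4 negative differences among 9 genes, with a median of 0.03 and no gene whose groups were separate. Bcorl1 (0.17 ± 0.07 SE), Bcor (0.17 ± 0.11), Skp1 (-0.12 ± 0.08) and Rnf2 (-0.10 ± 0.07) had the smallest p. With nicotine 1 and 3 left out these 4 differences were 0.13, 0.01, -0.13 and -0.11, and 6 of the 9 were positive. The H3K9 and H3K36 methyltransferases, which write the marks that the Kdm2, Kdm3 and Kdm4 enzymes remove, had 7 positive and 3 negative differences among 10 genes, with a median of 0.05. Leaving out nicotine 1 and 3 gave 4 positive and 6 negative differences, with a median of -0.03. Nsd3 (-0.12 ± 0.06 SE), Ehmt2 (0.21 ± 0.11), Nsd2 (0.57 ± 0.31) and Smyd2 (0.19 ± 0.10) had the smallest p. Nsd2, which writes H3K36 methylation, was at 10.47 and 11.00 in nicotine 1 and 3, against 9.20 to 9.64 in water mice, and its difference without these 2 prostates was 0.06 ± 0.10. Those of Nsd3, Ehmt2 and Smyd2 without them were -0.16, 0.09 and 0.11.

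**Figure D3:**
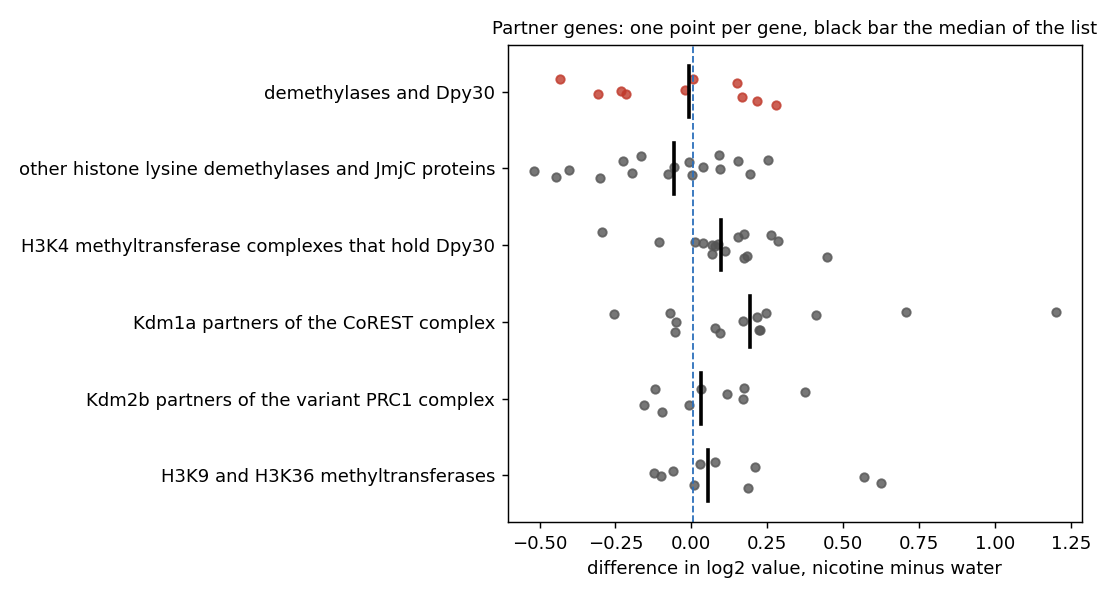
Difference in log2 value, nicotine minus water (horizontal axis), with 1 point for each tested gene of the members (red) and of the 5 partner lists (grey), a black bar at the median of each row and a dashed line at the median of all genes tested (0.004). The CoREST partners have the median farthest to the right (0.19), and the other demethylases the one farthest to the left (-0.06).

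**Figure D4:**
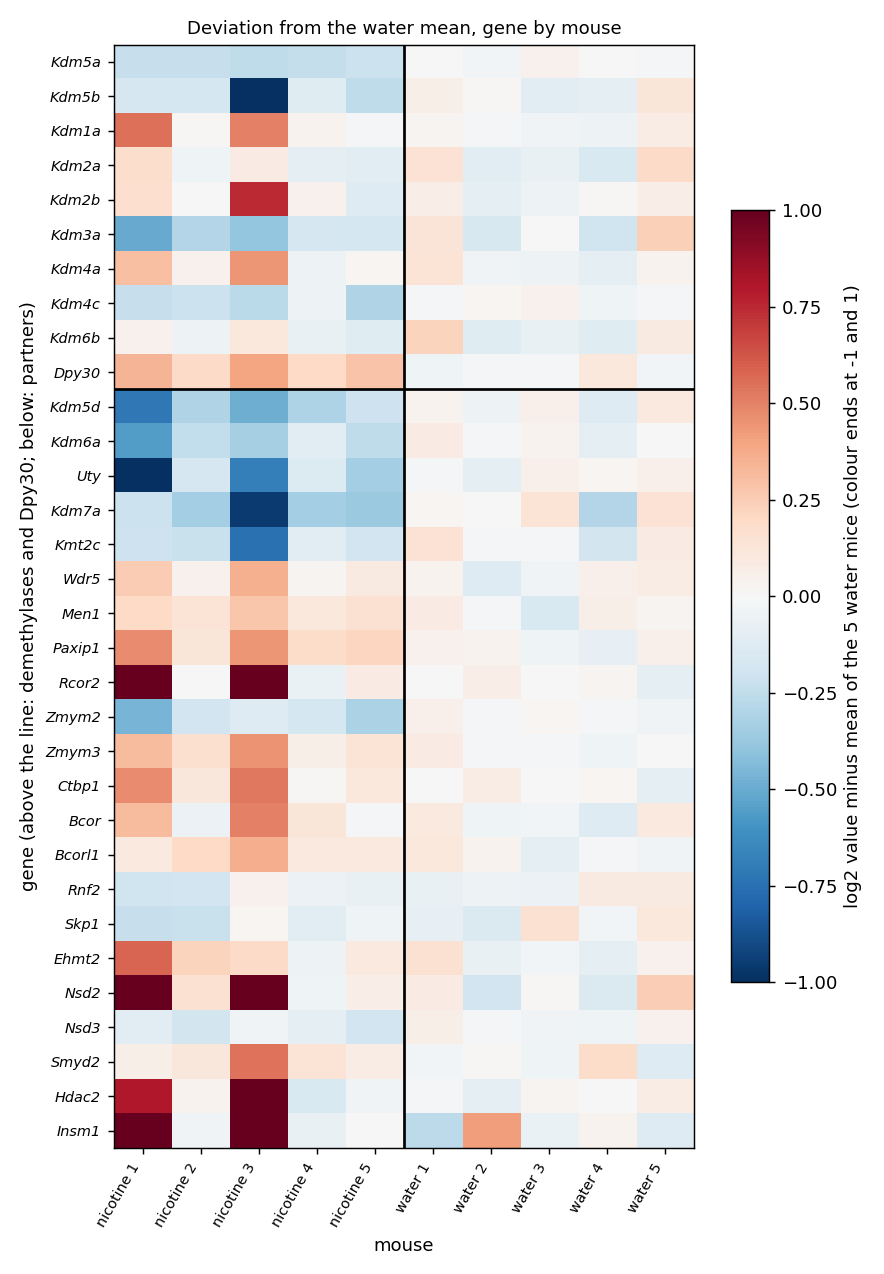
Log2 value minus the mean of the 5 water mice (colour, ending at -1 and 1) for the 10 members above the line and 22 partner genes below it, with nicotine mice in the left columns and water mice in the right ones. Kdm1a, Rcor2, Hdac2, Insm1 and Nsd2 are high in nicotine 1 and 3, while in all 5 nicotine mice Kdm5a is below and Dpy30 above the water mean.

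The order of the water mice extended to the partners: water 1 and water 5 were the 2 highest water mice for 32 of 66 partner genes (48.5%), against 19.7% of all genes tested. By list the count was 10 of 16 for the H3K4 methyltransferase complexes, 8 of 10 for the H3K9 and H3K36 methyltransferases, 8 of 17 for the other demethylases, 3 of 14 for the CoREST partners and 3 of 9 for the Kdm2b partners. Seminal vesicle genes averaged 7.21 in water 1 and 12.95 in water 5. What lies behind the order of the water mice was not tested.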

How the data were processed

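Per the labels' protocols, prostate RNA of 10 mice was amplified and biotin-labelled with whole-transcript kits of Ambion and Affymetrix for arrays read in 1 colour. The authors deposited 1 table of log2 values for 35556 probe sets, with array medians from 7.5 to 7.57; background correction and normalization followed steps not given in the sources used here, and log2 was read from the range of 3.59 to 14.1. No scanner files were used here, so probe detection and scan batches were not checked. Probe sets with 1 symbol in the platform annotation (21789) were kept, and for each gene the one with the highest mean. The lowest 25% of genes by mean (below 6.554) were left out. Nicotine was compared with water by limma 3.58.1 in R 4.3.3 (lmFit, eBayes, two-sided, Benjamini-Hochberg over 14953 genes, threshold 0.05), and SEs are those of the moderated fit. The steps were tested on simulated data. Precision is limited by having 5 arrays in each group. The members, lists and alternatives, including the removal of nicotine mice 1 and 3, were chosen with earlier results of these data known. Named partner genes are up to 4 per list with the smallest unadjusted p, other names being marked; likeness was Pearson correlation over 8 arrays, leaving out predicted and clone names. Of the list genes, 3 are not analysed here and 1 was below the filter (Kdm4d); Skp1a was matched as Skp1. Separate mouse numbers in the labels mark separate mice. The numbers 1 to 5 occur in both groups, and nothing in the labels says that a number is shared.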

Additional observations from a re-analysis of the deposited data

Results flagged for a closer look

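In 62 groups of 5 mice (the 10 members, the named partner genes and the neighbour of Kdm2b, in each group), 5 had a mouse far from the other 4, by Dixon's criterion of 0.71 for the gap over the range. Chance alone flags about 1 in 20 groups. Nicotine 3 was that mouse in 4 of the 5. Kdm5b stood at 8.02 in nicotine 3, against 9.22 to 9.36 in the other nicotine mice. Kdm7a stood at 9.42 in nicotine 3, with the others at 10.01 to 10.16, and Kmt2c at 9.91, with the others at 10.44 to 10.55. Smyd2 stood at 10.04 in nicotine 3, above the others at 9.56 to 9.63. In the water group Dpy30 stood at 10.62 in water 4, above the other 4 mice at 10.47 to 10.50, and this mouse was the nearest to the nicotine group.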

How the results depend on the processing

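Of 22 alternatives, 21 gave 0 genes past the threshold over all genes and over the partner lists by limma, the range over the fits that left out 1 mouse being 0 to 0. With array weights, which gave nicotine 3 a weight of 0.03211 and nicotine 1 one of 0.1128, 1096 genes passed (425 higher and 671 lower), among them 9 partner genes: Kdm5d, Kdm6a, Uty, Kdm7a, Paxip1, Zmym2, Zmym3, Setd2 and Nsd3. Of the members' 220 alternative values, 7 moved by more than the spread between mice. This spread was the SD of the gene within the groups, which includes nicotine 3 and is wide where that mouse stood apart. The shift of Kdm5b from -0.43 to -0.18 without nicotine 1 and 3 was therefore not counted as moved. Kdm5a (-0.24 to -0.21), Kdm4c (-0.26 to -0.16), Kdm3a (-0.36 to -0.18) and Dpy30 (0.18 to 0.32) kept their sign in all 22. Much of this was fixed in advance. The groups of Kdm5a, Kdm4c and Dpy30 did not overlap, so no fit that left out mice could turn their sign. Each member had 1 probe set, so the rule for choosing a probe set could not change its value. Nothing is therefore read from the kept signs. Kdm5b, Kdm1a and Kdm4a changed sign in the fit with the proliferation covariate, Kdm2b in 3 fits, Kdm6b in 4 and Kdm2a in 10; the cause was not tested. With the mouse number as a replicate block 0 genes passed. The correlation of deviations between mice of the same number ran from -0.13 to 0.16, and 0 of 5 nicotine mice correlated best with the water mouse of their number.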
